A study of Mus musculus with 6 samples.

Results

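The genes described here are 10 chemokine ligands of the CXC and CC classes: *Cxcl1*, *Cxcl2*, *Cxcl3*, *Cxcl10*, *Cxcl16*, *Ccl3*, *Ccl4*, *Ccl5*, *Ccl6* and *Ccl9*. They were taken by gene symbol, each matched 1 row, and they are 10 of the 55401 genes listed. RNA was sequenced from neutrophils sorted as CD45+ CD11b+ Ly6G+ cells from the bone marrow of 8-week-old male C57BL/6 mice. The 3 Ctrl libraries came from mice without ligatures and the 3 Lig libraries from mice in which silk had been tied around the maxillary and mandibular second molars of both sides 14 days earlier, which causes periodontitis. Each library pooled cells of 5 mice. The methods name sham surgery for an antibody experiment, and whether the Ctrl mice here had it is not stated, so an effect of the procedure itself was not tested. Nothing in the sources states that the pools of a group were raised or sorted separately, so the p-values measure the spread between these libraries only. The comparison asks how the ligand transcripts of marrow neutrophils differ between ligated and unligated mice.

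Chemokines are small secreted proteins that direct leukocyte migration through G protein-coupled receptors. CXC ligands with a glutamate-leucine-arginine motif, to which *Cxcl1*, *Cxcl2* and *Cxcl3* belong, attract neutrophils through CXCR2, and signals through CXCR2 release neutrophils from the marrow against retention by CXCR4. The CC ligands act mainly on monocytes, lymphocytes and other leukocytes. Many of these genes are transcribed within minutes to hours of an inflammatory stimulus through NF-kB, and their mRNAs are short-lived because AU-rich elements in the 3' UTR recruit decay factors such as tristetraprolin (*Zfp36*).

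Marrow neutrophils of ligated mice carried less mRNA of *Cxcl1*, *Cxcl3* and *Ccl4*, while no ligand rose. Of the 10 ligands, 9 had a mean of at least 1 FPKM (fragments scaled to transcript length and to the mapped fragments of the library) over the 6 libraries and were tested, and *Cxcl16* was not. With edgeR's quasi-likelihood test, 3 of the 9 fell at an adjusted p under 0.05, beside 6.43% of all 9632 genes tested, and 0 rose, beside 3.96% (0 also at an unadjusted p under 0.05). limma on log2(FPKM + 1) gave 3 that fell and 0 that rose, beside 7.26% and 1.71% of all genes, and DESeq2 gave 4 and 0, beside 10.4% and 7.74%. The median log2 fold change was -0.32 over the 9 ligands and -0.001 over all tested genes. In 6 of the 9, the FPKM of every Lig library lay below that of every Ctrl library, which was so for 24.9% of all tested genes. The reverse was seen for 0 of the 9 and for 9.9% of all genes. FPKM carries no further scaling between libraries. The median log2 fold change of all tested genes was -0.063 with limma on log2(FPKM + 1), against -0.001 with edgeR. In bulk RNA, fewer cells of a type and less RNA per cell cannot be told apart.

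**Figure D1:**
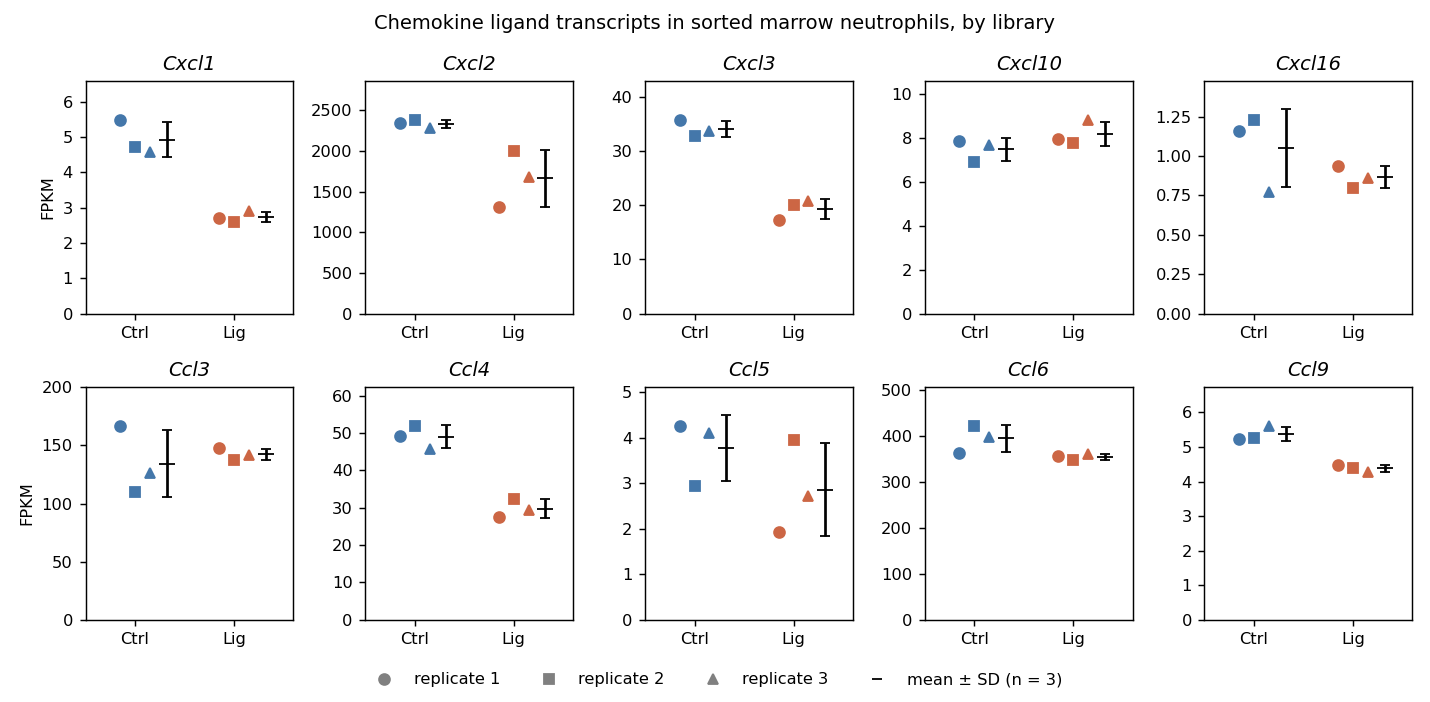
FPKM of the 10 ligands in each library (vertical axes start at 0 and differ between panels), with the 3 Ctrl libraries in blue, the 3 Lig libraries in orange, and the mean ± SD beside them. In FPKM, with no further scaling between libraries, the groups lie apart for *Cxcl1*, *Cxcl2*, *Cxcl3*, *Ccl4*, *Ccl6* and *Ccl9*. They overlap for *Cxcl10*, *Cxcl16*, *Ccl3* and *Ccl5*.

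The libraries held 50605309 to 61455112 deposited counts each, and the read pairs would number 4 times fewer if 4 counts stand for 1 pair. Transcripts of the sort were present, as *Itgam* averaged 208 FPKM in Ctrl and 258 in Lig, and *Ptprc* 55.3 and 58.5. *Ly6g* rose from 331 to 392 FPKM (0.32 ± 0.05 on the log2 scale, edgeR adjusted p = 0.0153), a call lost without Ctrl replicate 1 (0.0506), Ctrl replicate 3 (0.0556) or Lig replicate 3 (0.0628). Of 10 neutrophil markers 4 rose (*S100a8*, *S100a9*, *Ngp* and *Ly6g*) and 0 fell, with a median of 0.29, and their summed FPKM was 83025 to 92506 in Ctrl and 102730 to 112566 in Lig. Of the 6 fits without 1 library, *S100a9* was called in 2, *S100a8* in 5 and *Ngp* in 6. Markers of other cells were found in every library, and no marker of the lists given here was at 0 throughout. The summed FPKM of 8 B cell markers was 94.71 to 120.33 in Ctrl and 47.55 to 53.42 in Lig (5 of 8 tested fell), and that of 7 erythroid markers was 692.99 to 878.69 and 205.15 to 266.55 (6 of 7 fell). The monocyte and macrophage list, cells that also make *Ccl3*, *Ccl4*, *Ccl6* and *Ccl9*, summed to 165.64 to 175.75 FPKM in Ctrl and 147.8 to 174.67 in Lig. Of its 7 tested markers, 2 fell (*Fn1*, -1.25, adjusted p = 0.0165, and *F13a1*, -1.26, adjusted p = 0.00925), 0 rose, and the median was -0.76. *Fn1* was called in 3 of the 6 fits without 1 library and *F13a1* in 6. The most abundant marker of this list, *Ly6c2* (means of 118 FPKM in Ctrl and 128 in Lig), made up most of the sum and overlapped between groups. In 5 of the 7, every Lig library lay below every Ctrl library, beside 24.9% of all tested genes. Basophil and mast cell markers overlapped between groups but varied between libraries, from 112.77 to 203 in Ctrl and from 73.69 in Lig replicate 1 to 193.36 in Lig replicate 2 (0 of 5 tested called). The part of these cells, and of the higher neutrophil markers, in the ligand levels was not tested. Values of some lists are given beside single ligands below.

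The ligands spanned more than 3 orders of magnitude. By mean FPKM, a level per transcript length, the order was *Cxcl2*, *Ccl6*, *Ccl3*, *Ccl4*, *Cxcl3*, *Cxcl10*, *Ccl9*, *Cxcl1*, *Ccl5* and *Cxcl16*. Neighbours in this order did not overlap within a group, with 2 exceptions: *Ccl9* and *Cxcl1* overlapped in Ctrl, and *Cxcl1* and *Ccl5* overlapped in Lig. *Cxcl2* alone made up 78.5% to 78.9% of the summed ligand FPKM in Ctrl and 69.7% to 78.2% in Lig. The sum was 2975 ± 55.0 FPKM (SD, n = 3) in Ctrl and 2229 ± 343 in Lig, a ratio of 0.749. Without *Cxcl2* it was 635 ± 6.43 and 566 ± 7.36 FPKM, a ratio of 0.891. The largest part of this remainder was *Ccl6*, with means of 395 and 355 FPKM, which did not pass (edgeR adjusted p = 0.506). These sums were not scaled further between libraries and were not tested.

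*Cxcl3*, *Cxcl1* and *Cxcl2* lie in this order on the plus strand of chromosome 5 and encode the CXCR2 ligands (GRCm38 coordinates as deposited: 90786103 to 90789600, 90891241 to 90893115, and 90903871 to 90905938). Their promoters share a site, which is shown as a feature of the sequence. Its part in the transcript levels was not tested. The windows below are from RefSeq (GRCm38.p6, plus strand, 100 bases each, at chr5:90891155-90891254, chr5:90903783-90903882 and chr5:90786009-90786108). Capitals mark an 11-base run that matches the NF-kB consensus on both strands, as overlapping matches, and the TATA-like ATAAAA that follows it after 26, 29 and 33 bases.
Cxcl1 promoter: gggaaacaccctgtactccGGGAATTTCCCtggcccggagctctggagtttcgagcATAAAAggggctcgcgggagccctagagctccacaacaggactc
Cxcl2 promoter: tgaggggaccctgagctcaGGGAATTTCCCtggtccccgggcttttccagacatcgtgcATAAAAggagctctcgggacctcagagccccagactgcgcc
Cxcl3 promoter: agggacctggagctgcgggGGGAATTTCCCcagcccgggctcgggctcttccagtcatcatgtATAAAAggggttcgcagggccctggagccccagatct
The same 11 bases stood in all 3. RefSeq promoter windows (250 bases before to 50 after the start) were found for 7 of the 10 ligands. Searched on both strands, the NF-kB consensus matched 5 of these 7 and 8.46% of 32851 promoters, and ATAAAA matched 4 of 7 and 18.5%. The interferon-stimulated response element core (GAAA, any 2 bases, GAAA) matched 1 of 7 and 3.44%, and the AP-1 motif TGANTCA 2 of 7 and 7.81%. A match describes the letters only. The 5 with an NF-kB match were *Cxcl1*, *Cxcl2*, *Cxcl3*, *Cxcl10* and *Ccl9*.

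*Cxcl3* was listed at 35.75, 32.71 and 33.77 FPKM in Ctrl and at 17.20, 19.97 and 20.78 FPKM in Lig. All Lig libraries lay far below the lowest Ctrl library. It fell by 0.74 ± 0.08 on the log2 scale (± SE, edgeR adjusted p = 0.00441), from 34.1 ± 1.54 to 19.3 ± 1.88 FPKM, and remained called in each of the 6 fits without 1 library (adjusted p = 0.0106 to 0.0230).

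*Cxcl1*, which encodes the mouse ligand also called KC, was scarce, with 5.49, 4.72 and 4.58 FPKM in Ctrl and 2.71, 2.60 and 2.90 in Lig. Again the groups lay apart. It fell by 0.77 ± 0.12 on the log2 scale (adjusted p = 0.0143), which in this fit was the largest change among the 9 tested ligands, although it differed from that of *Cxcl3* by less than its SE and the order turned with limma on log2(FPKM + 1), with TPM and without Ctrl replicate 1 or Lig replicate 2. Its adjusted p stayed between 0.0340 and 0.0499 without 1 library. The tested genes of at least 5 FPKM whose centred log2(FPKM + 1) profile over the 6 libraries was nearest to that of *Cxcl1* were *Hspd1* (root mean square difference 0.039), *Rpl12* (0.042) and *Impdh1* (0.044), which encode a mitochondrial chaperonin, a ribosomal protein and an enzyme of guanine nucleotide synthesis.

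*Cxcl2* was among the abundant transcripts, with 2345.93, 2385.33 and 2287.32 FPKM in Ctrl and 1307.07, 2002.00 and 1680.39 in Lig. The Ctrl libraries were close together, whereas the Lig libraries spread widely, with replicate 1 lowest and replicate 2 nearest to Ctrl. The log2 fold change was -0.42 ± 0.13 and did not pass (edgeR adjusted p = 0.0911). It was -0.28 without Lig replicate 1 (adjusted p = 0.106) and passed without Lig replicate 2 (-0.57, adjusted p = 0.0361). DESeq2 called it at -0.41 (adjusted p = 0.0167; 10.4% of genes fell with this tool), as did limma on TPM at -0.59 (adjusted p = 0.0490), a scaling under which the median of all genes was -0.14. In Lig replicate 1 the summed FPKM of basophil and mast cell markers (73.69) and of eosinophil markers (18.44) was also lowest of the 6 libraries. Lig replicate 2, with 193.36 and 45.5 for these lists, lay within or just above the Ctrl range. In Ctrl, *Cxcl2* was highest in replicate 2, where the basophil and mast cell sum was lowest (112.77, against 203 and 147.1). The eosinophil sum was highest in that replicate (45.46, against 42.26 and 41.94). The part of these cells in the level of *Cxcl2* was not tested.

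The 3 genes resemble each other, so that reads could be shared. The coding sequences of *Cxcl2* and *Cxcl3* were 89.8% identical, those of *Cxcl1* and *Cxcl2* 75.6%, and those of *Cxcl1* and *Cxcl3* 72.6%. In GENCODE M21, 6.31% of the 50-base stretches of the *Cxcl3* transcript also occurred in *Cxcl2*, and none of *Cxcl1* occurred in another gene. Since *Cxcl2* had 65.6 to 72.9 times the FPKM of *Cxcl3* in Ctrl and 76.0 to 100.3 times in Lig, reads of *Cxcl2* counted for *Cxcl3* would weigh on the latter, and the extent was not tested. The *Cxcl3* to *Cxcl1* ratio was 6.94 ± 0.43 in Ctrl and 7.06 ± 0.67 in Lig (SD, n = 3, exact two-sided permutation test p = 0.8).

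*Ccl3*, *Ccl4*, *Ccl5*, *Ccl6* and *Ccl9* lie within a cluster on chromosome 11 between 83525778 and 83664683. *Ccl3* (83647844 to 83649355, minus strand) and *Ccl4* (83662584 to 83664683, plus strand) encode the macrophage inflammatory proteins 1-alpha and 1-beta, the former a ligand of CCR1. *Ccl4* had 49.29, 51.89 and 45.84 FPKM in the Ctrl libraries against 27.39, 32.46 and 29.30 FPKM in the Lig libraries. No Lig library reached the Ctrl range. It fell by 0.65 ± 0.10 on the log2 scale (edgeR adjusted p = 0.0107), and the call was lost without Lig replicate 3 (adjusted p = 0.0508).

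*Ccl3* had 166.80, 110.20 and 126.24 FPKM in the Ctrl libraries against 147.46, 137.91 and 141.91 FPKM in the Lig libraries. The Lig values were close together and lay inside the Ctrl range. The log2 fold change was 0.16 ± 0.13 (adjusted p = 0.480), and between 0.05 and 0.33 without 1 library. The FPKM ratio of *Ccl3* to *Ccl4* was 3.38, 2.12 and 2.75 in Ctrl and 5.38, 4.25 and 4.84 in Lig. The ratio was higher in every Lig library, although an exact two-sided permutation test gave p = 0.1, the smallest that 3 against 3 allows (0.2 adjusted over 6 ratios, chosen after the values were seen). In Ctrl, *Ccl3* was highest in replicate 1, which had the highest summed FPKM of basophil and mast cell markers (203, against 112.77 and 147.1). In Lig, *Ccl3* was highest in replicate 1, where this sum was lowest (73.69), and lowest in replicate 2, where it was highest (193.36). The part of these cells in the level of *Ccl3* was not tested.

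Sites in the 3' UTR that hold ATTTA, the letters counted here for AU-rich elements, are shown for these 2 genes and for the CXCR2 ligands. The *Ccl4* site holds 1 ATTTA, and 38.0% of 3' UTRs with 0.8 to 1.25 times the length of the *Ccl4* 3' UTR hold at least 1. The sites are the 30 bases with most ATTTA, from GENCODE M21 (GRCm38), 5′ to 3′ on the transcribed strand, with each ATTTA in capitals; neighbouring ATTTA can share an A. They lie at chr5:90892602-90892631, chr5:90905327-90905356, chr5:90787629-90787658, chr11:83648085-83648114 and chr11:83664473-83664502.
Cxcl1 3' UTR: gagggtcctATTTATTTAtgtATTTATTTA
Cxcl2 3' UTR: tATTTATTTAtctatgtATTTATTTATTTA
Cxcl3 3' UTR: caagatggcatcttATTTAatgtttATTTA
Ccl3 3' UTR: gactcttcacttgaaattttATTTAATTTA
Ccl4 3' UTR: ttcagatttcctgcccctcttcttaATTTA
Over the whole 3' UTR, *Cxcl2* held 11 ATTTA in 734 bases, *Cxcl1* 7 in 592, *Cxcl3* 5 in 645, *Ccl3* 5 in 409 and *Ccl4* 2 in 302. Of 3' UTRs with 0.8 to 1.25 times the length, the gene's own included, 0.0781% held at least as many as *Cxcl2* and 0.536% at least as many as *Cxcl1*. The share was 3.37% for *Cxcl3*, 1.3% for *Ccl3* and 13.4% for *Ccl4*. The longer element TTATTTATT, which contains ATTTA, was found in *Cxcl1*, *Cxcl2* and *Cxcl3* alone of the 10 ligands, and in 7.11% of 20850 genes. Among 3' UTRs of similar length it was found in 3.71% for *Cxcl1*, 4.1% for *Cxcl2* and 3.99% for *Cxcl3*. *Cxcl10*, *Cxcl16*, *Ccl6* and *Ccl9* held 2, 2, 4 and 5 ATTTA, and *Ccl5* held 0. Whether these sites have a part in the ligand levels was not tested. The Ctrl mean of *Zfp36* itself was 1560 ± 61.8 FPKM and its Lig mean 1305 ± 231 FPKM (adjusted p = 0.351).

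*Ccl6* and *Ccl9* (83587882 to 83593087 and 83572919 to 83578636, both minus strand) encode CC chemokines of mouse myeloid cells that act on CCR1. *Ccl6* was the second most abundant ligand, with 364.01, 422.55 and 399.46 FPKM in Ctrl and 357.54, 348.05 and 360.81 in Lig. In FPKM the groups lay apart by a narrow margin. On counts scaled by TMM, the log2 fold change of -0.08 ± 0.07 did not pass (edgeR adjusted p = 0.506). *Ccl9* was scarcer, with 5.24, 5.26 and 5.61 FPKM in Ctrl against 4.49, 4.39 and 4.27 FPKM in Lig. Although the groups were tight and did not overlap, its log2 fold change of -0.22 ± 0.09 did not pass with edgeR (adjusted p = 0.159) and passed with limma on TPM alone among the settings tried (-0.35, adjusted p = 0.0281). *Ccl6* overlaps *E230016K23Rik* on the opposite strand, which had a mean of 1.26 FPKM.

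*Ccl5* (83525778 to 83530518), which encodes RANTES, a product of T and NK cells that binds CCR1 and CCR3, had 4.26, 2.95 and 4.11 FPKM in the Ctrl libraries against 1.93, 3.95 and 2.71 FPKM in the Lig libraries. The groups overlapped, with Lig replicate 1 lowest and Lig replicate 2 in the upper Ctrl range. The log2 fold change was -0.32 ± 0.28 (adjusted p = 0.506), between -0.62 without Lig replicate 2 and -0.11 without Lig replicate 1. The summed FPKM of 10 T and NK cell markers was 19 to 19.8 in Ctrl and 11.75 to 15.01 in Lig (2 of 5 tested fell), and 5 of the 10 lay under 1 FPKM. Their part in *Ccl5* was not tested.

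*Cxcl10* (chromosome 5, 92346638 to 92348882, minus strand) encodes an interferon-induced ligand of CXCR3 on T cells. The Ctrl libraries held 7.87, 6.90 and 7.70 FPKM, against 7.94, 7.79 and 8.83 FPKM in Lig. The groups overlapped, and the log2 fold change of 0.20 ± 0.09 did not pass (adjusted p = 0.207). Of 10 interferon-induced genes, 9 were tested, 3 rose (*Oas1a*, *Cmpk2* and *Isg15*) and 0 fell, with a median log2 fold change of 0.43. *Oas1a* rose by 0.83 ± 0.09 on the log2 scale (adjusted p = 0.00483), whereas *Rsad2* did not pass (0.35 ± 0.11, adjusted p = 0.0842), and *Isg15* (0.43 ± 0.10) and *Cmpk2* (0.33 ± 0.07) were called in none of the fits without 1 library. Whether *Cxcl10* differed from these genes was not tested. The promoter of *Cxcl10* is shown because it differs from those above in its sites (RefSeq, GRCm38.p6, chr5:92348910-92349139, minus strand, written along the gene). Capitals mark the match to the interferon-stimulated response element core at -213 to -204 from the start site and the 2 stretches that match the NF-kB consensus.
Cxcl10 promoter: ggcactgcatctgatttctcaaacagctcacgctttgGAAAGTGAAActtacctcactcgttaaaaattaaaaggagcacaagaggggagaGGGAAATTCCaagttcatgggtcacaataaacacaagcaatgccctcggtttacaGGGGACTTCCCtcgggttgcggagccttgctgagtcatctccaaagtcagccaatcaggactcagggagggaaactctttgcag

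*Cxcl16* (chromosome 11, 70453983 to 70459984), a membrane-bound ligand of CXCR6, lay under the filter with a mean of 1.05 FPKM in Ctrl and 0.867 in Lig. The libraries held 1.16, 1.23 and 0.77 FPKM in Ctrl and 0.94, 0.80 and 0.86 in Lig, and the groups overlapped. Without the filter its log2 fold change was -0.16 (edgeR adjusted p = 0.744).

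**Figure D2:**
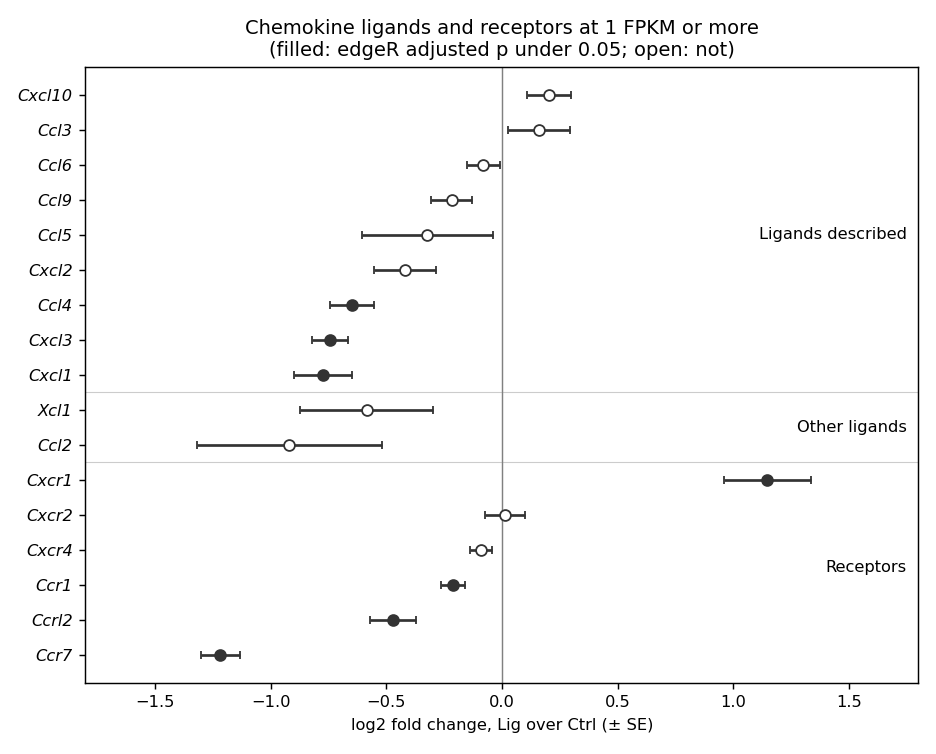
Log2 fold change of Lig over Ctrl (horizontal axis, ± SE, edgeR) of the 9 tested ligands described, the 2 other ligands tested and the 6 chemokine receptors tested, with filled points for an adjusted p under 0.05. *Cxcl1*, *Cxcl3* and *Ccl4* are the filled points among the ligands, and *Cxcr1* is the filled point to the right of 0.

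Of 28 other chemokine ligands of the mouse, 13 were at 0 in every library and 2 reached a mean of 1 FPKM. These were *Ccl2*, a monocyte attractant (Ctrl 3.48 ± 1.53 FPKM, Lig 1.73 ± 0.54 FPKM, adjusted p = 0.182), and *Xcl1*, a product of NK and T cells (Ctrl 4.42 ± 1.42 FPKM, Lig 2.78 ± 0.443 FPKM, adjusted p = 0.232). Neither passed with edgeR, also at an unadjusted p under 0.05. The platelet chemokine *Pf4* was next, with 1.07, 1.44 and 1.29 FPKM in Ctrl and 0.20, 0.00 and 0.60 in Lig.

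Among 24 chemokine receptors, 6 were tested, 1 rose and 3 fell. *Cxcr2*, the receptor of the 3 CXC ligands above, averaged 154 ± 16.3 FPKM over Ctrl and 147 ± 1.82 FPKM over Lig (adjusted p = 0.943), a log2 fold change of 0.01 that took the other sign under 5 other tests, scalings or filters and without Ctrl replicate 1 or Lig replicate 1. *Cxcr4* averaged 370 ± 17.2 and 330 ± 11.1 FPKM (adjusted p = 0.275). *Ccr1*, a receptor of *Ccl3*, *Ccl5*, *Ccl6* and *Ccl9* products, fell by 0.21 ± 0.05 on the log2 scale (adjusted p = 0.0443), a call lost in each fit without 1 library (0.0510 to 0.137). *Ccr7*, a receptor for homing to lymph nodes, fell by 1.22 ± 0.08 on the log2 scale (adjusted p = 0.00193), and *Ccrl2*, an atypical receptor that binds chemerin, by 0.47 ± 0.10 (adjusted p = 0.0311). *Cxcr1*, another neutrophil receptor of CXC ligands, rose by 1.15 ± 0.19 on the log2 scale (adjusted p = 0.0148). It was scarce, with 1.94 ± 0.147 FPKM in Ctrl and 4.09 ± 0.836 FPKM in Lig. The call of *Ccrl2* was lost without Ctrl replicate 1 (0.0900), Ctrl replicate 3 (0.0884), Lig replicate 1 (0.0528) or Lig replicate 3 (0.0848), and that of *Cxcr1* without Ctrl replicate 1 (0.0501) or Ctrl replicate 3 (0.0594). *Ccr3*, *Cxcr3* and *Cxcr6*, receptors of *Ccl5*, *Cxcl10* and *Cxcl16* products, lay under 1 FPKM.

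The ligands were read beside other inducible genes. Of 23 tested inflammatory genes, 2 rose and 1 fell. *Tnf* rose by 0.67 ± 0.09 on the log2 scale (adjusted p = 0.00925), from 93 ± 13 to 141 ± 5.9 FPKM, and *Rel*, a subunit of NF-kB, by 0.32 ± 0.06 (adjusted p = 0.0217), while *Socs3*, a feedback inhibitor of cytokine receptors, fell by 0.77 ± 0.10 (adjusted p = 0.0078). The call of *Rel* was lost with limma on log2(FPKM + 1) (0.0699) and without Ctrl replicate 2 (0.0544), Ctrl replicate 3 (0.0860), Lig replicate 1 (0.0623) or Lig replicate 2 (0.0608). The NF-kB inhibitor gene *Nfkbia* averaged 2097 and 2218 FPKM (adjusted p = 0.109), and *Nfkbiz*, a nuclear cofactor of NF-kB, 606 and 668 FPKM (adjusted p = 0.130). The FPKM ratio of *Tnf* to *Ccl4* was 1.55 to 2.16 in Ctrl and 4.46 to 4.89 in Lig. An exact two-sided permutation test gave p = 0.1, the smallest that 3 against 3 allows (0.2 adjusted over the 6 ratios, chosen after the values were seen). Of 15 immediate early and heat shock genes, which also respond to handling of cells, 1 rose (*Egr1*, 0.39 ± 0.08, adjusted p = 0.0320) and 4 fell, among them *Ier3* (-0.77 ± 0.12, adjusted p = 0.0119), *Hspa1b* (-1.29 ± 0.21, adjusted p = 0.0153) and *Dusp1* (-0.58 ± 0.12, adjusted p = 0.0305). The call of *Egr1* was lost with limma on log2(FPKM + 1) (0.0916) and in the fits without 1 library (0.0502 to 0.0996) other than that without Ctrl replicate 1. *Dusp1* lost its call without any 1 Ctrl library (0.0690 to 0.0898) or Lig replicate 3 (0.0808), and *Hspa1b* without Lig replicate 1 (0.0519) or Lig replicate 3 (0.0524). *Junb* averaged 2122 and 1833 FPKM (adjusted p = 0.143). The summed FPKM of the 15 genes was 6208.67 to 6887.55 in Ctrl and 4725.62 to 5867.51 in Lig, lowest in Lig replicate 1, as was that of the ligands. The part of handling in the ligand levels was not tested.

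**Figure D3:**
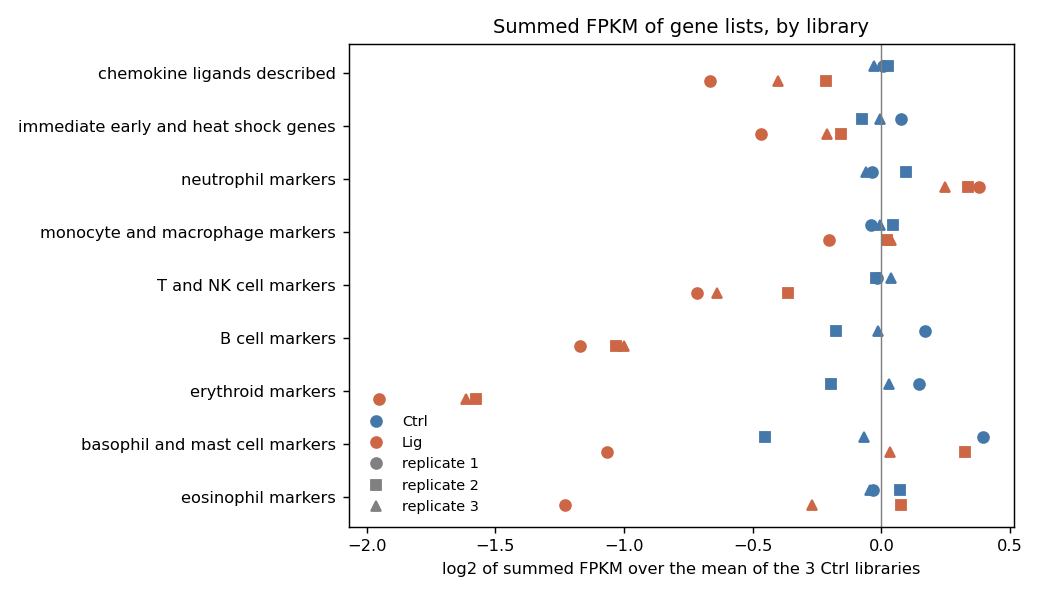
Log2 of the summed FPKM of 9 gene lists (the ligands, immediate early and heat shock genes, and 7 lists of cell type markers) over the mean of the 3 Ctrl libraries (horizontal axis), with Ctrl in blue, Lig in orange and the replicate number by symbol. The ligand sum is lower in the 3 Lig libraries (1874.67 to 2559.92 FPKM) than in Ctrl (2915.4 to 3023.74), among these 9 lists Lig replicate 1 is lowest in all but the neutrophil markers, and basophil and eosinophil markers overlap between groups.

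**Figure D4:**
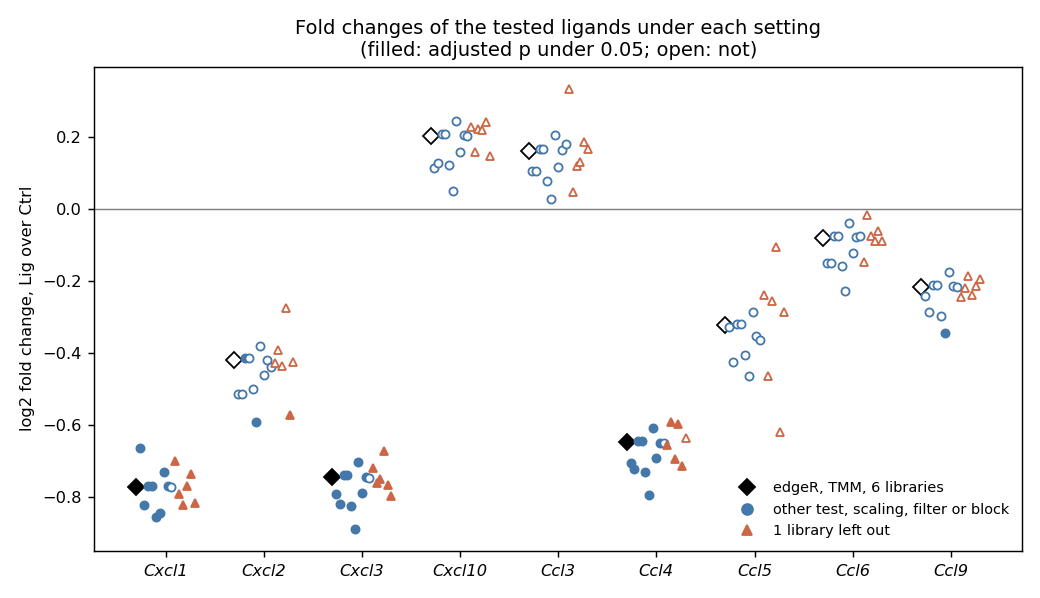
Log2 fold change of Lig over Ctrl (vertical axis) of the 9 tested ligands under each setting, with diamonds for the fit reported, circles for other tests, scalings, filters or the replicate block, triangles for fits without 1 library, and filled symbols for an adjusted p under 0.05. No ligand changes sign, and *Cxcl1* and *Cxcl3* are open under the replicate block alone.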

How the data were processed

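Per the labels, the submitters' processing notes name cutadapt 1.9, FastQC and the build GRCm38, and the reads were paired-end. For strandedness, aligner, counting program and annotation release, no source used here gives an entry. The authors deposited FPKM (scaled to transcript length and mapped fragments, with no further scaling between libraries) and whole-number expected counts per gene. The deposited expected counts appear to be calculated from coverage at about 4 counts per read pair, since 40.2% to 41.3% of values from 1 to 16 are multiples of 4 (25% if spread evenly).

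The 9632 of 55401 genes whose FPKM averaged 1 or more were tested with edgeR 4.0.16 in R 4.3.3 on the counts scaled by TMM, with the group as the only term. P-values were two-sided and adjusted by Benjamini and Hochberg over all genes tested, with a threshold of 0.05. The SE is the size of the log2 fold change divided by the square root of F. Alternatives used limma 3.58.1 on log2(FPKM + 1), log2(FPKM + 0.1) and log2(TPM + 1) (TPM rescaled from the deposited FPKM), DESeq2 1.42.0, other scalings and filters, counts divided by 4, a replicate block and fits without 1 library. The steps were tested on simulated data.

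The ligands and the gene lists were chosen with earlier results of these data known. Named beside the 10 ligands were, of the other ligands and receptors, those past the threshold and the 3 most abundant; of the inflammatory, immediate early and interferon-induced lists, up to 4 past the threshold by smallest p and the 3 most abundant; the genes of the sort; and the 3 genes nearest in profile to the ligand with the largest change. *Cxcr2*, *Ccr3*, *Cxcr3*, *Cxcr6*, *Rsad2*, *S100a8*, *S100a9*, *Ngp*, *Fn1*, *F13a1*, *Ly6c2* and *E230016K23Rik*, and the 6 ratios of FPKM, lie outside this rule and were named after their values were seen.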

Additional observations from a re-analysis of the deposited data

How the results depend on the processing

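The 9 tested ligands kept their direction under the alternatives run. Samples with the same replicate number did not deviate together (correlations of deviations -0.10, -0.10 and 0.03), so that the replicate block compares samples that share a number only. Under this block 16 genes rose and 38 fell, 0 of the 9 ligands passed, *Ccl4* was at -0.65, *Cxcl1* at -0.77 and *Cxcl3* at -0.75, and 0 receptors rose and 1 fell. DESeq2 placed *Cxcl2* past the threshold (-0.41), with 744 genes that rose and 997 that fell, and limma on TPM placed *Cxcl2* (-0.59) and *Ccl9* (-0.35) past it, so that 5 ligands fell, with 97 genes up and 1232 down. With TPM, all tested genes had a median of -0.14, against which the ligand values there are to be read. limma on FPKM raised 165 genes with either pseudocount, and library size alone raised 168. The share of calls that were higher was 38.1% under TMM but 19.1% for limma on log2(FPKM + 1), 15.5% for library size alone and 7.3% for TPM. With no filter 410 genes fell, and at a mean of at least 5 FPKM 228 rose, 376 fell and 0 receptors rose, where *Cxcr1*, *Cxcl1*, *Ccl5* and *Ccl9* were not tested. *Cxcr2* turned to -0.055 with limma on FPKM with either pseudocount, -0.067 with library size, -0.13 with TPM and -0.031 at 5 FPKM. Its range was -0.068 to 0.11 without 1 library. The cause was not tested.

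Without 1 library, 83 to 249 genes rose and 195 to 445 fell, lowest without Lig replicate 3 and highest without Ctrl replicate 2. The ligands that fell numbered 2 to 4 (2 without Lig replicate 3, 4 without Lig replicate 2), *Cxcl2* ranged from -0.57 to -0.28, *Ccl4* from -0.71 to -0.59, and the receptors that fell numbered 1 to 2 and those that rose 0 to 1. The log2 ratio of the summed ligand FPKM, -0.42, ranged from -0.53 to -0.31, an alternative chosen after seeing the data. *Ccl5*, at -0.32, had the largest SE of the tested ligands (0.28), and its Lig libraries spread from 1.93 to 3.95 FPKM. What depth limits was not tested.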
